A study of Mus musculus with 144 samples.

Results

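Probes 1084, 1098 and 1092 are 3 of the 742 mouse microRNA probes that were tested on arrays of mouse blood, out of 1262 mouse probes with deposited values. They were chosen from measured values, because their level was lower at months 6 and 12 than at month 1, so that fall is described below without a test. Male C57BL/J6 mice, 7 weeks old when obtained, were exposed to dispersion medium (DM, the vehicle and negative control), to 1, 10, 40 or 80 µg of multi-walled carbon nanotubes (MWCNT), or to 120 µg of crocidolite asbestos, the positive control. Different mice were killed 1, 6 or 12 months after exposure, with 8 mice in each of the 18 groups of month and exposure and 1 array per mouse, 144 in all. Mice at later months were also older, so time after exposure and age cannot be told apart.

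MicroRNAs are short RNAs that pair with messenger RNAs, mostly in the 3' untranslated region, and lower their translation or stability. Blood holds microRNAs from red cells, platelets and white cells, and in smaller amounts from plasma. The labelled RNA came from whole samples of blood, so fewer cells of a type and less RNA per cell cannot be told apart. The files identify the probes by number only and pair no number with a microRNA name, so no name, sequence or function is given for them here, and markers of blood cell types could not be checked.

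A level below is the log2 of background-corrected spot brightness after quantile normalization, which gives all arrays the same distribution of values. Each probe was printed as 3 spots per array. The spots of the 3 probes lay in different blocks of the print (block 2 for 1084, block 7 for 1098 and block 5 for 1092), and none of them was flagged on any array. All 3 probes were above the detection threshold on 144 of 144 arrays. Before normalization the brightness above local background ran from 45.0 to 1851 units for 1084, from 80.3 to 6029 for 1098 and from 97.3 to 4293 for 1092, while the thresholds of the arrays ran from 12.97 to 62.6.

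A small number of arrays stood apart from the rest, and several results below depend on them. Arrays were compared over the tested probes other than these 3, and the median Pearson correlation of an array with the others was 0.991 at the middle array. It was under 0.98 on 13 arrays (0.928 to 0.9798). Of these, 6 were month 1 arrays, with 3 in the 40 µg group and 3 in the 80 µg group, 6 were month 6 arrays, with 2 in the DM group, and 1 was a month 12 array. They were dimmer on average, with a mean log2 brightness of 7.49 against 7.67 on the other arrays. Results are given with and without these 13 arrays.

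The mean level of probe 1084 was lower in each later group than in the month 1 group of the same exposure. In the DM group its lowest, median and highest mouse were at 9.50, 9.91 and 10.20 at month 1, at 7.05, 8.12 and 8.83 at month 6 and at 7.76, 8.02 and 8.62 at month 12. With 1 µg MWCNT they were at 9.19, 9.63 and 10.20, then 7.87, 8.55 and 8.88, then 7.96, 8.37 and 8.60. All later mice of both exposures lay below all month 1 mice. With 10 µg the 3 values were 9.70, 9.93 and 10.31 at month 1, 7.88, 8.59 and 8.76 at month 6 and 7.94, 8.46 and 8.55 at month 12. With crocidolite they were 9.17, 9.74 and 10.03, then 7.58, 8.58 and 9.03, then 8.11, 8.31 and 8.53. These groups did not overlap either. The 2 highest MWCNT doses differed from the rest in that month 1 mice reached down into the later range. With 40 µg the values were 8.42, 9.81 and 10.20 at month 1, 8.32, 8.46 and 8.83 at month 6 and 8.14, 8.46 and 8.77 at month 12. With 80 µg they were 8.49, 9.70 and 10.29, then 8.36, 8.70 and 9.04, then 8.19, 8.48 and 8.83.

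The difference between month 1 and the later months was larger for probe 1098 than for 1084 in each exposure but 1 µg at month 12. Its lowest, median and highest DM mouse were at 10.98, 11.49 and 11.87 at month 1, at 7.94, 9.28 and 9.84 at month 6 and at 7.92, 9.23 and 9.77 at month 12. With 10 µg MWCNT they were at 10.91, 11.31 and 11.72, then 8.19, 9.42 and 9.73, then 8.92, 9.16 and 9.66. In both exposures the month 1 mice kept a clear distance from the later mice, of more than 1 log2 unit between the nearest mice. With 1 µg the month 1 mice were more spread, at 9.82, 10.71 and 11.46, against 8.14, 9.49 and 9.73 at month 6 and 9.13, 9.32 and 9.79 at month 12. With crocidolite the values were 10.20, 10.83 and 11.39, then 8.58, 9.46 and 10.08, then 8.65, 9.22 and 9.96. Month 1 and later mice did not overlap in these groups, but the gap was narrow. With 40 µg the values were 9.04, 11.08 and 11.69 at month 1, 9.20, 9.62 and 10.05 at month 6 and 8.92, 9.34 and 9.82 at month 12. With 80 µg they were 8.70, 11.12 and 12.00, then 8.74, 9.62 and 9.84, then 8.90, 9.61 and 9.96. The 80 µg group at month 1 held both the lowest and the highest month 1 mouse of this probe.

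Probe 1092 had the smallest fall of the 3, and its groups overlapped more. Its lowest, median and highest DM mouse were at 10.72, 11.09 and 11.27 at month 1, at 8.17, 10.52 and 10.80 at month 6 and at 9.68, 10.33 and 10.98 at month 12. With 1 µg MWCNT they were at 10.95, 11.03 and 11.54, then 9.96, 10.44 and 11.06, then 9.89, 10.24 and 10.89. The highest later mice of DM, and the highest month 6 mouse at 1 µg, lay among the month 1 mice. With 10 µg the values were 11.17, 11.22 and 11.41 at month 1, 9.00, 10.53 and 10.98 at month 6 and 9.84, 10.32 and 10.72 at month 12. With crocidolite they were 10.77, 11.12 and 11.54, then 10.48, 10.64 and 10.89, then 10.03, 10.38 and 10.64. The 10 µg group was free of overlap at both later months, and the crocidolite group at month 12. With 40 µg the values were 10.27, 11.15 and 11.33, then 9.79, 10.42 and 10.74, then 10.01, 10.26 and 10.91. With 80 µg they were 9.04, 11.21 and 11.39, then 10.40, 10.78 and 11.17, then 10.08, 10.51 and 11.12.

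**Figure D1:**
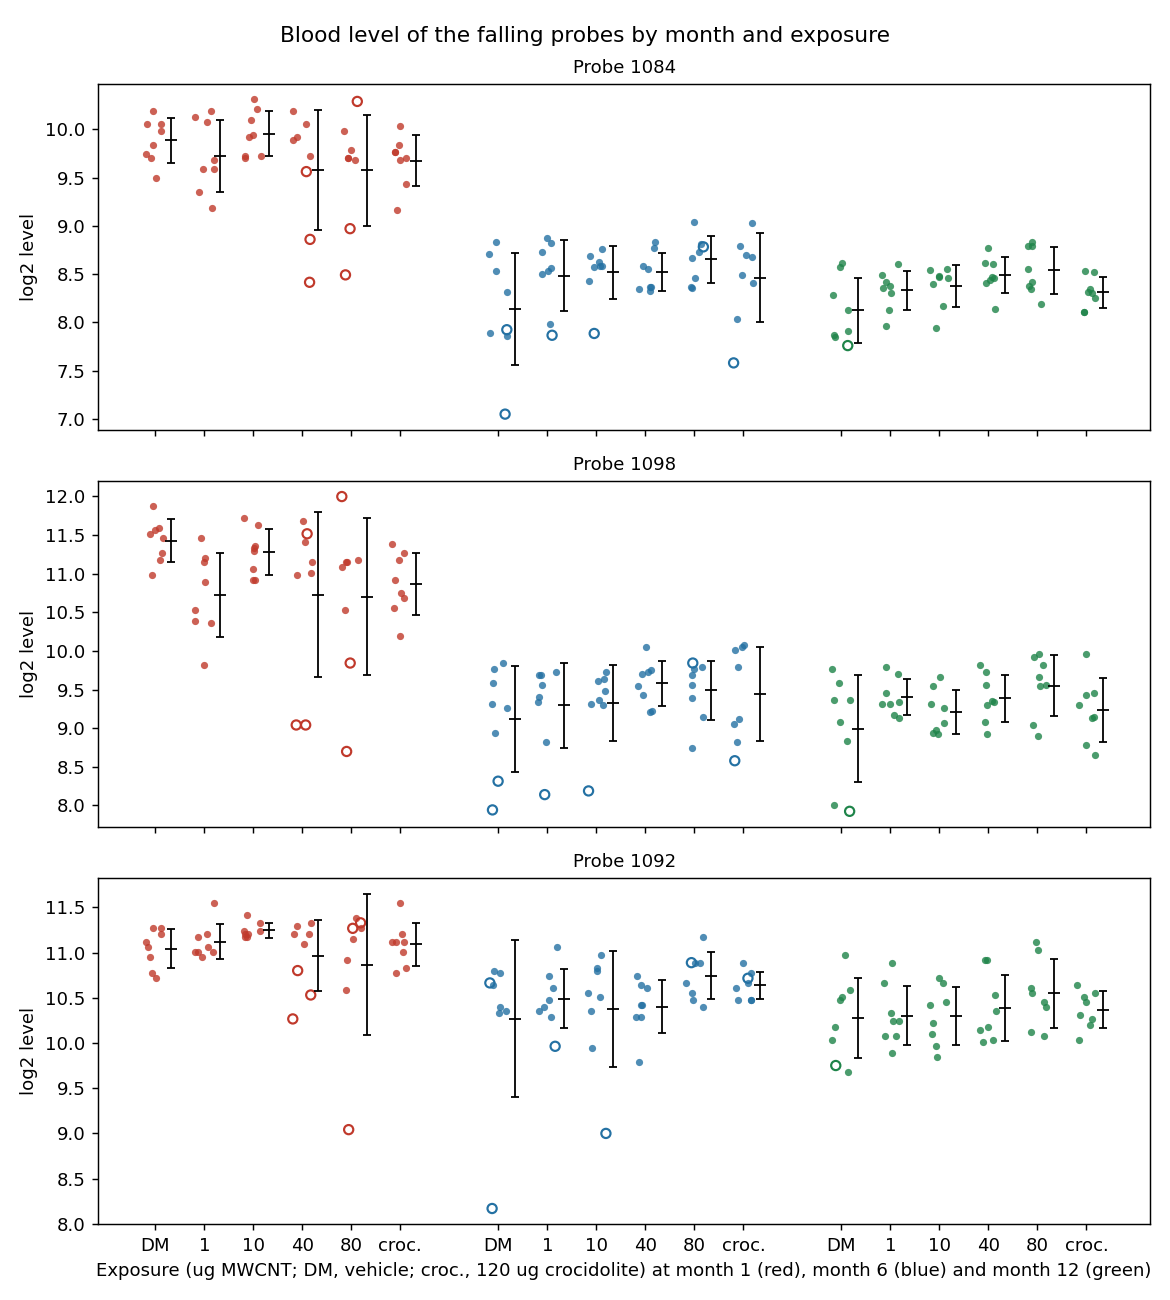
Log2 level of probes 1084, 1098 and 1092 in each mouse, by exposure, at month 1 (red), month 6 (blue) and month 12 (green); the black bars are mean ± SD of 8 mice, and open circles are mice whose array had a median correlation under 0.98 with the others. For 1084 and 1098 the later mice sit below the month 1 mice except for 2 or fewer open circles in each of the 40 and 80 µg groups.

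Taken over groups, the order of levels split by month. The 6 month 1 group means of 1084 lay between 9.58 and 9.95 and the 12 later means between 8.12 and 8.65. For 1098 the month 1 means lay between 10.70 and 11.43 and the later means between 8.99 and 9.58. For 1092 they lay between 10.87 and 11.25 and between 10.27 and 10.74, which left only 0.12 between the lowest month 1 mean and the highest later mean. The pooled SD between mice of a group was 0.35 for 1084, 0.55 for 1098 and 0.41 for 1092. In the ordered list of 18 means, 16 of 17 neighbouring pairs of 1084 and of 1098 were closer than that SD, and the 1 wider step was the one from month 1 to the later months. All 17 neighbouring pairs of 1092 were closer than its SD.

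Averaged over the 6 exposures with equal weight, the later months lay below month 1 by a log2 difference of -1.62 ± 0.10 (SE) for 1098, -1.32 ± 0.06 for 1084 and -0.63 ± 0.07 for 1092, which is 3.07-fold, 2.50-fold and 1.55-fold lower on the linear scale. These were the 3 largest falls of the 742 probes. The next probe, 3001, differed by -0.56 and the one after it by -0.51, so 1092 was close to the probes left out and 1084 and 1098 were not. Of the 48 mice at each later month, 48 and 48 lay below the median month 1 mouse for 1084 and 1098, and 47 at month 6 and 48 at month 12 for 1092. Since the probes were chosen for this difference, these values describe them and test nothing.

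The size of the difference was not the same in all exposures. For 1084 and 1098 it was largest in the DM group, at -1.75 ± 0.17 (SE) and -2.31 ± 0.27 at month 6 and at -1.76 ± 0.17 and -2.44 ± 0.27 at month 12. Without the arrays that stood apart the month 6 values were -1.53 ± 0.14 and -1.98 ± 0.20, and those of month 12 were -1.71 ± 0.13 and -2.28 ± 0.19. For 1092 the month 6 difference was -0.88 ± 0.21 (SE) at 10 µg and -0.12 ± 0.21 at 80 µg, where it ranked only 184th of 742, and at month 12 it was -0.95 ± 0.21 and -0.32 ± 0.21. The small differences at 80 µg turned on 1 month 1 mouse, replicate 3, without which they were -0.39 and -0.58. Without all arrays that stood apart they were -0.34 ± 0.16 and -0.51 ± 0.16. At 80 µg 1084 differed by -0.93 ± 0.17 and -1.04 ± 0.17 and 1098 by -1.21 ± 0.27 and -1.15 ± 0.27, while in the 10 µg group at month 12 the difference of 1098 was -2.07 ± 0.27. Probe 1084 was among the 3 lowest differences of the 742 probes in each of the 12 comparisons of a later month with month 1 of the same exposure, and 1098 among the 2 lowest. The group means at 40 and 80 µg rest in part on the low month 1 mice described below.

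**Figure D2:**
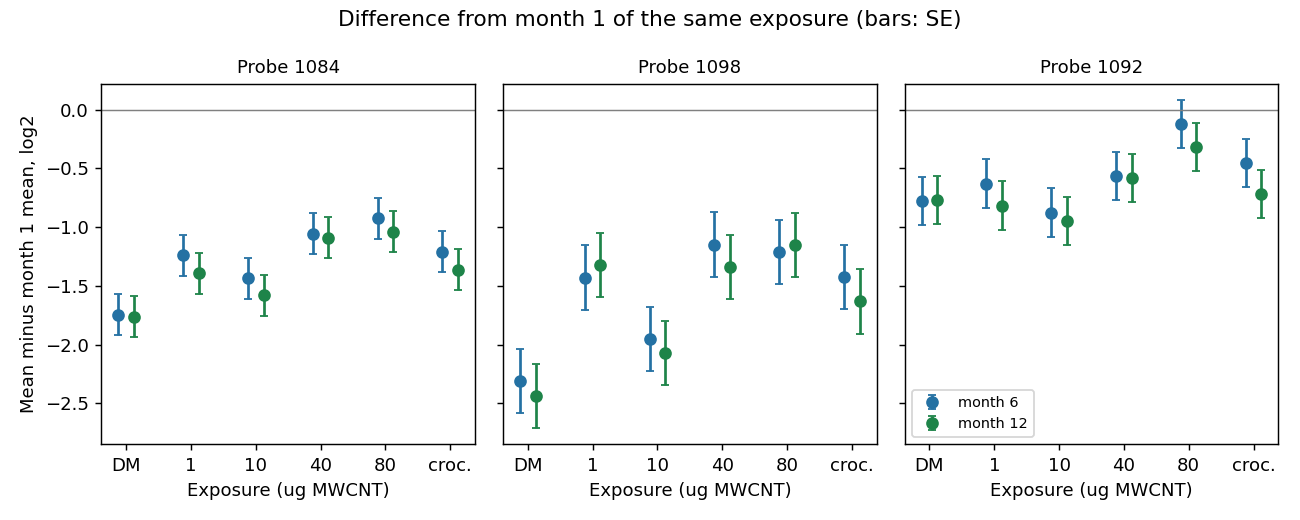
Group mean at month 6 (blue) and month 12 (green) minus the month 1 mean of the same exposure, on the log2 scale, for each probe; bars are the SE from the fit over all groups and 0 is no difference. The points of 1092 at 80 µg, -0.12 and -0.32, lie nearest to 0, and without month 1 replicate 3 of that dose they would be at -0.39 and -0.58.

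Overlap of mice was counted as well. At month 6 all mice lay below all month 1 mice of their exposure for 1084 and 1098 in 4 of 6 exposures (DM, 1 µg, 10 µg and crocidolite) and for 1092 in 1 of 6 (10 µg). At month 12 this held for 1084 and 1098 in the same 4 exposures and for 1092 in 3 of 6 (1 µg, 10 µg and crocidolite). Over all tested probes such a complete separation downward was seen at month 6 in 0.270% with DM and with 1 µg, 0.539% with 10 µg, 0.404% with crocidolite and 0% with 40 and 80 µg. At month 12 it was seen in 0.539% with DM, 0.674% with 1 µg, 0.809% with 10 µg, 0.539% with crocidolite, 0% with 40 µg and 0.135% with 80 µg. At month 6 the DM and 1 µg probes without overlap were 1084 and 1098 alone. The rule that chose the probes used this contrast, so nothing is read from these shares.

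Arrays were scanned on 7 days. Months 1 and 6 shared 5 of these days and months 1 and 12 shared 5. Within each such day the mean over later mice was below that over month 1 mice for each of the 3 probes. The within-day differences of 1092, the smallest of the 3, ran from -0.92 to -0.40 at month 6 and from -0.86 to -0.39 at month 12. Some of these days held few mice of 1 month (2 of month 6 on one day and 1 of month 1 on another). The log2 brightness of an array before normalization averaged 7.69 ± 0.15 (SD over 48 arrays) in month 1 mice, 7.58 ± 0.14 in those of month 6 and 7.68 ± 0.14 in those of month 12.

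Mice of month 1 that already lay low for all 3 probes were few and fell in the 40 and 80 µg groups. A month 1 mouse was counted as low for a probe when it lay below all 8 DM mice of month 1, that is below 9.50 for 1084, 10.98 for 1098 and 10.72 for 1092. At 40 µg 2 of 8 mice were low for 1084, 2 for 1098 and 2 for 1092, and these were the same 2 mice. At 80 µg 2 of 8 were low for 1084, 3 for 1098 and 2 for 1092, and 1 mouse was low for all 3. No mouse of the 1 µg, 10 µg or crocidolite groups was low for all 3 probes.

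For these probes, such mice were at or near the level of mice examined months later. At 40 µg, replicate 4 was at 8.86 for 1084, 9.04 for 1098 and 10.27 for 1092. Replicate 5 of that group was at 8.42, 9.04 and 10.53. For 1098 both lay within the range of the 40 µg mice of month 12, 8.92 to 9.82. At 80 µg, replicate 3 was at 8.49 for 1084, 8.70 for 1098 and 9.04 for 1092. For 1098 and 1092 it lay below all later mice of the 80 µg dose. Replicate 2 of the 80 µg group was at 8.97 for 1084 and 9.84 for 1098, but at 11.33 for 1092 it was among the higher month 1 mice. In brightness above background, 1098 measured 388, 306, 203 and 853 units in these 4 mice, against a median of 2900 in the month 1 DM group. The mean level of the 10 probes that rose most after month 1 was low in them too, at 9.50, 9.62, 9.36 and 9.89. Its median over mice was 10.48 at month 1, 10.92 at month 6 and 11.16 at month 12. In those probes the 4 mice lay below the month 1 median. The 10 probes were picked by their rise on these same arrays, the 4 mice included. Low values in the 4 mice add to that rise, so nothing is read from their position there.

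All 4 mice were measured on arrays that stood apart, with a median correlation of 0.950 and 0.958 for replicates 4 and 5 at 40 µg and 0.928 and 0.976 for replicates 3 and 2 at 80 µg. The brightness of the first 3 arrays ranked 17th, 11th and 5th from the dimmest of 144, and that of the fourth ranked 77th. The arrays that stood apart were not all low. Replicate 5 at 80 µg, with a median correlation of 0.965, held the highest level of 1098 on any array, 12.00, and replicate 7 at 40 µg (0.979) was at 11.52. The scan of that replicate 5 was labelled redip, and the scans of the 4 mice above were not. What part the state of these arrays had in the low levels was not tested.

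Without the arrays that stood apart, 5 mice were left at each of the 2 doses. At 40 µg they were at 9.96 ± 0.18 (SD, n = 5) for 1084, 11.25 ± 0.30 for 1098 and 11.23 ± 0.09 for 1092. At 80 µg they were at 9.77 ± 0.13, 11.02 ± 0.27 and 11.06 ± 0.32. For 1084 and 1098 all of them lay above all later mice of their dose. For 1092 this held at 40 µg, where the lowest was at 11.09 and the highest later mouse at 10.91, and failed at 80 µg, where these were 10.58 and 11.17.

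**Figure D3:**
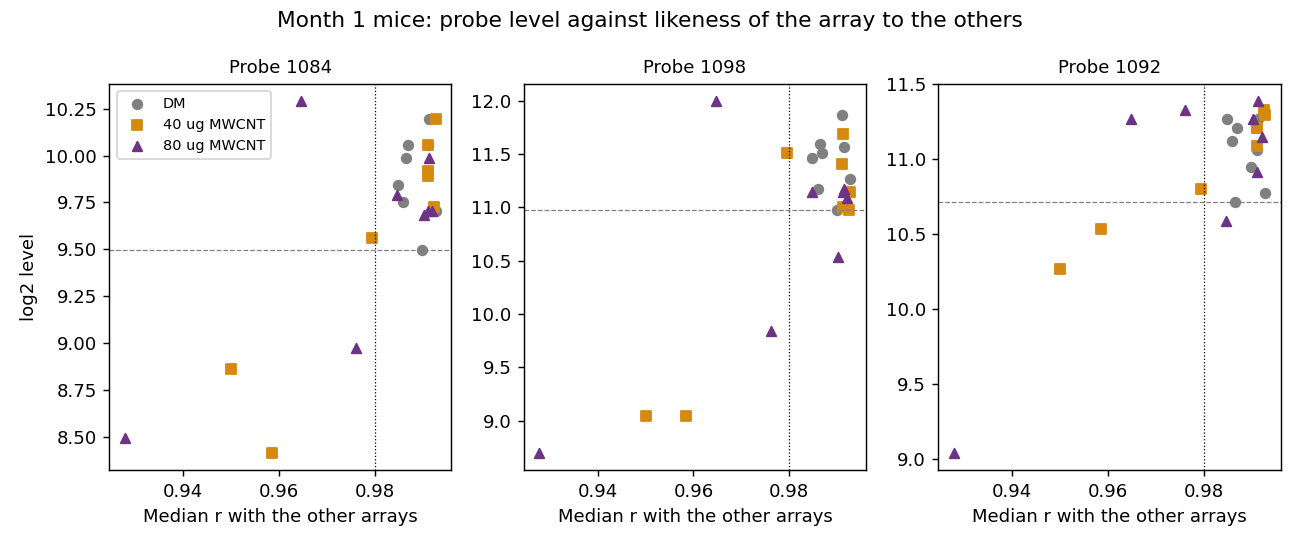
Log2 level in each month 1 mouse of the DM, 40 µg and 80 µg groups against the median Pearson correlation of its array with the other arrays; the dotted line marks a correlation of 0.98 and the dashed line the lowest DM mouse. All DM arrays lie to the right of the dotted line, and the 2 low 40 µg mice and the lowest 80 µg mouse lie at 0.958 or less.

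Probe 1098 also lay lower in the month 1 mice of 2 groups without such arrays. With 1 µg MWCNT 5 of 8 mice, and with crocidolite 5 of 8, were below all DM mice. The group means were 10.72 ± 0.55 (SD, n = 8) and 10.87 ± 0.40 against 11.43 ± 0.28 with DM, and the 10 µg mean was 11.28 ± 0.30. For 1084 the same groups had 2 and 2 mice below all DM mice, and for 1092 none. All 24 DM arrays lay at print positions A and C of their slides, while 23 of 24 arrays of 1 µg, 23 of 24 of 40 µg and 24 of 24 of crocidolite lay at positions B and D, so for these exposures position and exposure cannot be told apart. These month 1 values are a description, and no test was made of them.

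Exposure was compared with DM within months 6 and 12, contrasts that the choice of probes did not use. The question was whether MWCNT or crocidolite moved the probes once they were at their later level. None of the 30 comparisons, 3 probes in 5 exposures and 2 months, passed the thresholds of the study's methods (unadjusted p under 0.05, Benjamini-Hochberg adjusted p under 0.10 over all 742 probes and a fold of 1.5 or more) in limma. At an unadjusted p under 0.05 alone there were 8 of 30, against 8.69% of all probes in the same 10 comparisons, and those shares of all probes ran from 1.75% for 10 µg at month 12 to 20.2% for 80 µg at month 6. With print position, which differs between DM and several exposures, as a term in the fit, the count was 4 of 30. For 1084 at month 6 the differences at 1 and 40 µg were then 0.40 ± 0.28 (SE) and 0.43 ± 0.28. Without the term they were 0.35 ± 0.17 and 0.38 ± 0.17, so the SE grew and the differences did not shrink. That of 1098 at 80 µg and month 12 was 0.53 ± 0.28 with the term and 0.56 ± 0.27 without it. In a plain comparison of the 2 groups, as in the methods, 3 reached that level and none was called. Over all probes the share called was 0.270% for 80 µg at month 6, both of them lower, and 0% in each of the other 9 comparisons.

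The differences ran from 0.025 to 0.56 on the log2 scale, and all 5 exposures of a month share its 8 DM mice. Probe 1084 was at 8.14 ± 0.58 (SD, n = 8) with DM at month 6 and at 8.65 ± 0.24 with 80 µg. The difference of 0.51 ± 0.17 (SE) had a limma adjusted p of 0.104, the lowest of the 30, and 8 of 8 mice lay above the DM median. At month 12 the difference at 80 µg was 0.41 ± 0.17 (95% interval 0.07 to 0.76, limma adjusted p = 0.717). For 1092 the month 6 difference at 80 µg was 0.48 ± 0.21 (adjusted p = 0.191 in limma), and 6 of 8 mice lay above the DM median. For 1098 the month 12 difference at 80 µg was 0.56 ± 0.27 (limma adjusted p = 0.826). Its 95% interval was 0.017 to 1.099.

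The month 6 DM group held 2 of the arrays that stood apart. Its replicate 4 had the lowest median correlation of all arrays and differed from the group mean by -1.09 for 1084, -1.18 for 1098 and -2.10 for 1092. Without the 13 arrays the difference of 1084 at 80 µg and month 6 was 0.28 ± 0.14 (SE), with an adjusted p of 0.553 in limma, and that of 1092 was 0.17 ± 0.15 (limma adjusted p = 0.845). The 30 differences then ran from -0.15 to 0.41. The number at an unadjusted p under 0.05 was then 4 of 30, against 5.57% of all probes. These were 1084 at 80 µg in both months and at 40 µg at month 12, and 1098 at 80 µg at month 12. With print position as a term the 40 µg difference of 1084 at month 12 was 0.41 ± 0.28 (SE), against 0.36 ± 0.17 without that term.

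**Figure D4:**
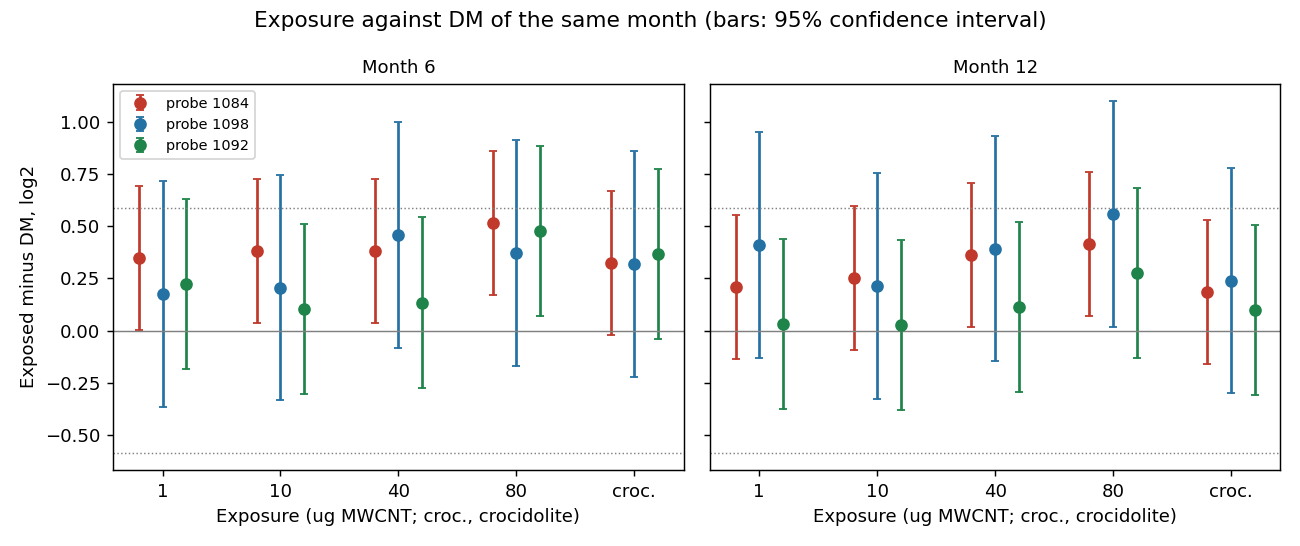
Exposed minus DM mean of the same month, log2, for probes 1084 (red), 1098 (blue) and 1092 (green); bars are 95% confidence intervals and the dotted lines mark a fold of 1.5 in either direction. All 30 points lie between the lines, from 0.025 to 0.56.

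Whether the probes moved on between the later months was tested next. Month 12 minus month 6, averaged over the 6 exposures, was -0.10 ± 0.07 (SE) for 1084, with a 95% interval of -0.24 to 0.04 and a limma adjusted p of 0.334. It was -0.08 ± 0.11 for 1098 (-0.30 to 0.14, limma adjusted p = 0.653) and -0.12 ± 0.08 for 1092 (-0.29 to 0.04, limma adjusted p = 0.326). None of the 3 probes was called, and over all probes 0.135% were. Without the 13 arrays the values were -0.18 ± 0.05, -0.18 ± 0.08 and -0.20 ± 0.06, with limma adjusted p of 0.013, 0.109 and 0.013, still below the fold threshold.

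The probes differed more between mice of a group than most probes did. The pooled SD of 1098, 0.55, was above that of 91.9% of tested probes, that of 1092 (0.41) above 82.2% and that of 1084 (0.35) above 73.9%, and the median over probes was 0.22. Without the 13 arrays the SDs were 0.37, 0.28 and 0.25, above 88.4%, 73.0% and 65.6% of probes, and the median was 0.20. The 3 spots of a probe on 1 array differed less, with a root mean square SD of 0.17 for 1084, 0.14 for 1098 and 0.19 for 1092. From the first month to the last, the SD between mice of 1098 was 0.68, then 0.52, then 0.42. For 1084 it was 0.42, 0.38 and 0.23, and for 1092 0.39, 0.49 and 0.35. The ratio of month 1 to month 12 SD was 1.80 for 1084, 1.65 for 1098 and 1.12 for 1092 against a median of 1.12 over probes. Without the 13 arrays these ratios were 1.15, 0.98 and 0.59 against a median of 0.98, and the month 1 SD was 0.26 for 1084, 0.37 for 1098 and 0.20 for 1092. The widest group of each probe held arrays that stood apart. It was 40 µg at month 1 for 1084 (0.62) and 1098 (1.07), and DM at month 6 for 1092 (0.87). The SD of 1098 at 80 µg and month 1 was 1.02. The narrowest group was 1092 at 10 µg and month 1 (0.08).

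Mice of 1 group that were low for 1084 were mostly low for 1098 too. The deviations of the 144 mice from their group means gave a Pearson r of 0.76 and a Spearman rho of 0.65 (permutation p = 1e-05 for both, the smallest that 100000 resamples can give, adjusted p = 3e-05 over the 3 pairs, two-sided, labels permuted within groups). The r was positive in 16 of 18 groups of 8 mice, from -0.33 to 0.98, and positive on each of the 6 scan days with enough arrays, from 0.31 to 0.83. It was 0.81 over the month 1 groups, which hold the low mice that the choice of probes took note of, and 0.72 over the 96 mice of months 6 and 12 (adjusted permutation p = 3e-05). Month 6 alone gave 0.86 and month 12 alone 0.44 (adjusted permutation p = 0.032), with a rho of 0.35 at month 12 (adjusted permutation p = 0.0823). Without the 2 mice farthest from the median of 1084 r was 0.72. Without the 13 arrays that stood apart it was 0.53 and rho 0.51 over 131 mice (adjusted permutation p = 3e-05 for both).

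The pairs with 1092 rested on a few arrays. Probes 1084 and 1092 had an r of 0.45 and a rho of 0.24 over 144 mice (adjusted permutation p = 9e-05 and 0.00825). The 144 include the low month 1 mice that the choice of probes took note of. Over the 96 mice of months 6 and 12 r was 0.38 and rho 0.17 (adjusted permutation p = 0.00657 and 0.156). Without the 13 arrays r was 0.057 and rho 0.064 (adjusted permutation p = 0.528 and 0.492). Probes 1098 and 1092 had an r of 0.37 (adjusted permutation p = 0.00089) but a rho of 0.10 (adjusted permutation p = 0.282). Over the 96 mice of months 6 and 12 their r was 0.26 and rho 0.049 (adjusted permutation p = 0.0331 and 0.642). Their r was -0.14 without the 13 arrays (adjusted permutation p = 0.203), and with all arrays it was positive in 10 of 18 groups. Without the 2 mice farthest from the median of the first probe r was 0.35 for 1084 and 1092 and 0.23 for 1098 and 1092. At month 12 the r of 1098 and 1092 was -0.23 (adjusted permutation p = 0.28).

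Among all 274911 pairs of tested probes, the r of 1084 and 1098 was above 99.5%, and above 98.7% without the 13 arrays. The r of 1084 and 1092 was above 95.9% of pairs with all arrays and above 64.7% without the 13, and that of 1098 and 1092 above 93.5% and 22.2%. The absolute r of the median pair was 0.14 and 0.12. All pairs share the same arrays and normalization.

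**Figure D5:**
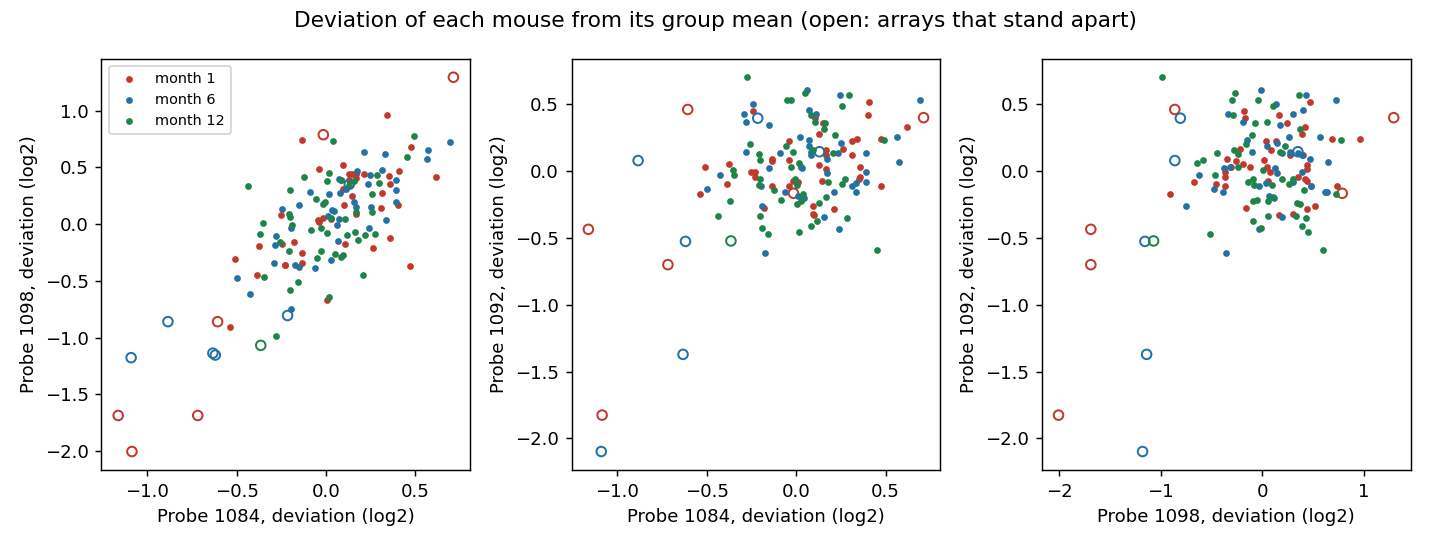
Deviation of each mouse from the mean of its group, log2, for the 3 pairs of probes, at month 1 (red), month 6 (blue) and month 12 (green); open circles are the 13 arrays that stood apart. Probes 1084 and 1098 line up with r = 0.76, while in the pairs with 1092 the mice farthest to the lower left are open circles.

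Group means moved together as well, which is given as a description. The 18 means fall into a month 1 set and a later set, so they are taken apart. Over the 6 month 1 means r was 0.90 for 1084 and 1098, 0.79 for 1084 and 1092 and 0.51 for 1098 and 1092. Over the 12 later means it was 0.84, 0.76 and 0.64. Each of these means includes the arrays that stood apart.

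The probes most like each member were sought among the other 739 tested probes. Over deviations from group means on 144 arrays, 1084 was most like probe 1443 (r = 0.79), 1098 most like probe 1911 (r = 0.83) and 1092 most like probe 1015 (r = 0.76). None of these 3 fell after month 1, since their later means were above month 1 by 0.29, 0.26 and 0.41 on the log2 scale. Without the 13 arrays the r values were 0.59, 0.65 and 0.51. Over the 18 group means all 3 members were most like a single probe, ORB_1210306, with r of 0.94, 0.94 and 0.95, and that probe differed by -0.41 after month 1. These r values span the month 1 and later sets. They include the step for which the members were chosen, so no likeness beyond that step is read from them.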

How the data were processed

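Blood microRNA from 144 mice was measured on 1-colour arrays with 3 spots per mouse probe and 4 arrays per slide, on 38 slides. Per the file headers and the methods, the deposited scanner files hold median foreground and local background intensity per spot. The authors' deposited table holds log2 values after background subtraction and scaling by a trimmed mean, and its differences from values recomputed that way were constant within each array. Another 24 array scans of these slides are assigned to no sample here and were not used. Some slides were scanned again under the label redip, so part of these 24 are other scans of arrays that do belong to samples.

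From the intensities, background was corrected with normexp (offset 50), log2 values were averaged over spots and 1262 mouse probes were quantile normalized. The threshold of an array was the 10% trimmed mean of its 21 empty spots plus 5 times their SD. Some group had to have every one of its 8 arrays above threshold for a probe to be tested, and 742 probes met this. Group means of the 18 groups were fitted with limma 3.58.1 in R 4.3.3. Correlations were tested with 100000 permutations within groups. Both were tested on simulated data. The labels name no separate replicate numbers, so replicates are numbered in deposit order. Precision depends on the count of 8 arrays per group.

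The members, lists and tests were chosen with earlier results of these data known. Probes named besides the members are, for each member, the 1 with the highest Pearson correlation over deviations and the 1 with the highest over group means, and probe 3001, named after its value was seen. Alternatives were other background corrections and scalings, the deposited table, batch terms, filters, thresholds and left-out arrays. Leaving out the arrays that stand apart was chosen after seeing the data.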

Additional observations from a re-analysis of the deposited data

Results flagged for a closer look

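The 18 groups of 8 mice were checked once for each probe, which gave 54 sets of values. By Dixon's test, 5 held a mouse whose gap to the nearest other mouse was large against the range of its group. In independent sets chance gives about 1 in 20. The 3 probes share their mice and arrays, so the 54 sets are not independent, and the 5 are not weighed against that rate. At month 6 with 10 µg MWCNT, replicate 7 was the low mouse for 1084 (7.88, the next at 8.43) and for 1098 (8.19, the next at 9.29). For 1092 the low mice were replicate 3 of the month 1 80 µg group (9.04, the next at 10.58) and replicate 4 of the month 6 DM group (8.17, the next at 10.33). These 4 values came from 3 arrays with a median correlation of 0.935, 0.928 and 0.928 with the other arrays. The fifth was a high mouse, replicate 1 of the month 1 1 µg group, at 11.54 for 1092 with the next at 11.21, and its array did not stand apart (0.991).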

How the results depend on the processing

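The differences between later months and month 1 kept their direction and moved by less than the SD between mice under all alternatives run, from -1.48 to -1.30 for 1084, -1.73 to -1.59 for 1098 and -0.69 to -0.57 for 1092. Leaving out 1 array at a time gave -1.35 to -1.30, -1.67 to -1.59 and -0.68 to -0.61. Trimmed-mean scaling moved the median of all probes by 0.12 to 0.13 upward after month 1 and by -0.16 to -0.14 from month 6 to month 12, so relative to that median 1098 and 1092 were above it between months 6 and 12. With scan day as a term the month 12 minus month 6 difference of 1098 was 0.030 instead of -0.08, and the cause was not tested. No exposure was called against DM under any of the 13 alternatives. The count at an unadjusted p under 0.05 was 3 to 8, and 4 with position as a term. The Pearson correlation of 1084 and 1098 kept an adjusted permutation p under 0.05 in all settings, while at month 12 alone its rho of 0.35 had an adjusted permutation p of 0.0823. That of 1084 and 1092 was 0.15 at month 12, and 0.057 and 0.035 without the arrays under a median correlation of 0.98 and 0.97. That of 1098 and 1092 was -0.23, -0.14 and -0.16 in the same settings. The cause was not tested beyond the arrays left out. No paired analysis was possible because each group held different mice, and the labels give no replicate numbers to match them by.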
